A study of Gallus gallus with 8 samples.

Results

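RAB genes encode small GTPases that mark the membranes of a cell and steer vesicle traffic between them, and 58 genes of this name were on the array. They were taken by name alone: every gene whose symbol in the array annotation was RAB followed by a digit, out of 13009 named genes. Of these 58 genes, 50 carried the name of a RAB GTPase and 8 the name of a protein that binds or regulates one. The array held 112 probe sets for them, and each gene was represented by the probe set with the highest mean over the 8 arrays.

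The RNA came from hen (Gallus gallus) ovarian samples labelled as oocytes of the F1 stage, taken 24 h before ovulation, and was hybridised to Affymetrix chicken arrays. DPF+ and DPF- are divergently selected hen lines that differ in fertility. HG+ and HG- hens both come from 1 line and differ in fertility within it. Each of the 4 groups had 2 arrays, called biological replicates in the labels with no word on separate birds or pools. The p-values thus measure the spread between these samples, pooled over the 4 groups, and this spread may be technical. All hens shared the same light schedule, temperature and feed, no treatment was given in the labels, and the RNA amounts ran from 8.8 to 13.3 µg. The design asks which genes differ with fertility between lines and which differ with fertility inside a line.

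A RAB protein is a switch: bound to GTP it sits on a membrane and recruits effectors such as tethers and motors, and bound to GDP it is extracted into the cytosol. Exchange factors turn it on, GTPase-activating proteins turn it off, and a lipid anchor added by prenylation holds it on the membrane. The growing hen oocyte takes up yolk precursors by receptor-mediated endocytosis, and the granulosa cells around it are secretory. The roles given here for single RAB proteins are known mainly from mammalian cells.

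The labelled cell type was checked against marker genes. All 11 granulosa markers on the list were detected, with medians per array from 9.35 to 10.93 on the log2 scale of the deposited values. Of 9 genes listed as oocyte markers, 5 were detected (DAZL, NPM2, H1FOO, MOS and UMOD), while DDX4, GDF9, BMP15 and ZP1 stayed under 4. UMOD, which the reference table also names ZPD, had a mean of 12.76, and its cell of origin was not tested. The other detected oocyte markers had means from 4.54 to 7.38. The samples thus held granulosa RNA. The evidence for oocyte RNA was weaker and rested mainly on DAZL at 7.38, with lower signals of NPM2, H1FOO and MOS. In such bulk samples fewer cells of a type and less RNA per cell cannot be told apart. Precision is limited by how few arrays there are, and the DPF+ arrays were the least alike: 52.6% of all genes tested differed by 0.5 or more between them, against 22.8% in DPF-, 5.45% in HG+ and 5.98% in HG-. For 3 control transcripts the difference between 3' and 5' probe sets, which grows as RNA is degraded or amplified from its 3' end, separated all groups on the log2 scale. It was 1.82 and 1.86 in DPF+, 1.54 and 1.33 in DPF-, 1.15 and 1.17 in HG+, and 1.10 and 1.04 in HG-.

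RAB transcripts were widely detected. A value of at least 4 on at least 2 arrays was reached by 39 of the 58 genes, 32 GTPases and 7 regulators or binding proteins, compared with 7042 of the 13009 named genes. The other 19 were at 4 on 0 arrays. Nearest to this filter, RAB19 passed with a mean of 3.98 and a highest value of 4.53, and RAB7L1 did not pass, with a mean of 3.43 and a highest value of 3.71. The median level of the 39 genes was 7.22, and that of all genes tested was 6.63. Levels are probe set signals, and probe sets bind their targets unequally, so their order is an order of signals and not of RNA amounts.

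**Figure D1:**
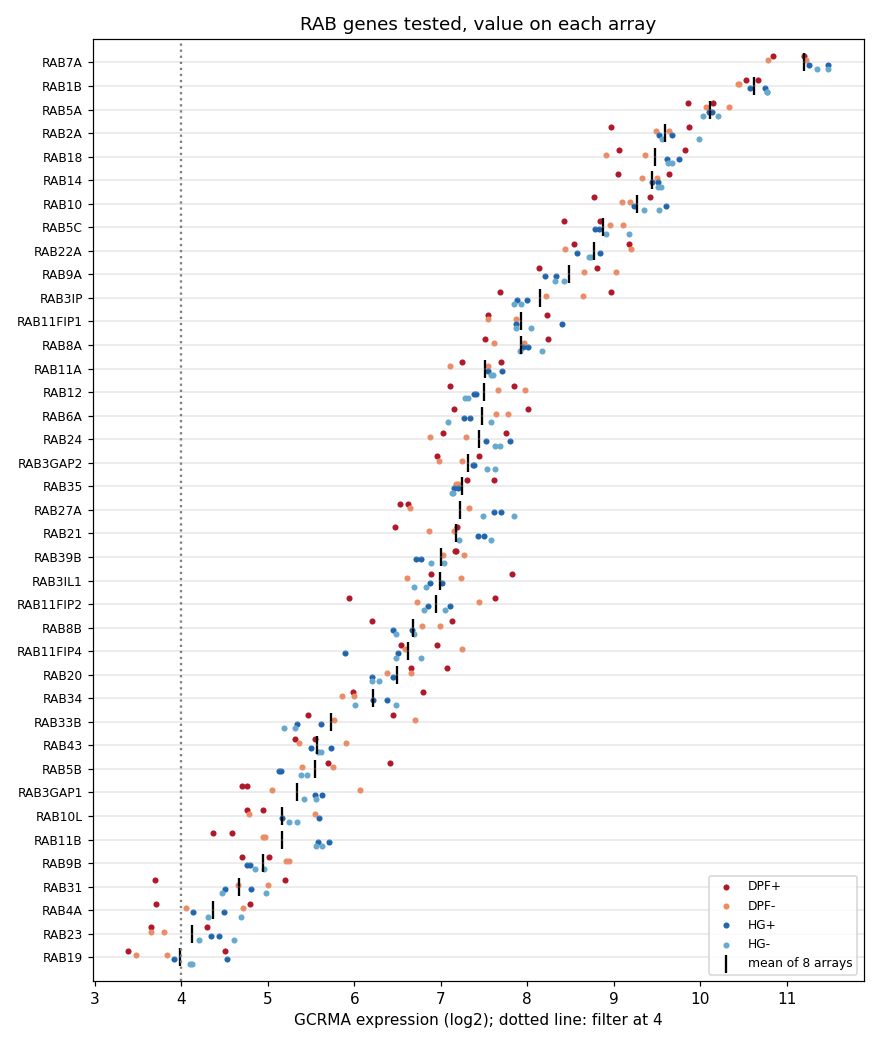
GCRMA expression (log2) of the 39 RAB genes tested, 1 point per array coloured by group, with a bar at the mean of 8 arrays and a dotted line at the filter of 4. RAB7A, RAB1B and RAB5A stood at the top with means of 11.20, 10.62 and 10.11, and the points of neighbouring genes further down overlapped.

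RAB7A, which drives the maturation of late endosomes and their fusion with lysosomes, had the strongest signal and ranked 1 on every array. It measured 10.84 and 11.20 in DPF+, 11.22 and 10.78 in DPF-, 11.25 and 11.48 in HG+, and 11.47 and 11.35 in HG-. The HG arrays all lay above the DPF arrays for this probe set, while those of its other tested probe set overlapped. RAB1B, of transport from the endoplasmic reticulum (ER) to the Golgi, ranked 2 on every array at 10.53 and 10.67 in DPF+, 10.43 and 10.45 in DPF-, 10.57 and 10.75 in HG+, and 10.77 on both HG- arrays. The reference table lists RAB1A as another name of this gene, so a signal shared by the pair cannot be told apart. RAB5A, the GTPase of early endosome fusion, ranked 3 on every array at 10.15 and 9.86 in DPF+, 10.33 and 10.06 in DPF-, 10.13 and 10.10 in HG+, and 10.20 and 10.03 in HG-. Its groups overlapped throughout.

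These 3 genes were the only ones with a mean of at least 10, and each was separated from the next in order (by 0.58, 0.51 and 0.52) by more than its SD over the 8 arrays (0.26, 0.14 and 0.14). Below them, 8 genes had means of 8 to 10, 17 of 6 to 8, 10 of 4 to 6 and 20 under 4. Of the 38 adjacent pairs among the genes tested, 33 lay closer together than the larger of their SDs over the 8 arrays, so most neighbours in the order did not differ beyond their spread. The probe sets used for 13 of the 39 genes carry the array's suffix for probes common to several transcripts, which can include other genes: RAB7A, RAB5A, RAB2A, RAB18, RAB14, RAB10, RAB22A, RAB3IP, RAB11FIP1, RAB6A, RAB11FIP4, RAB33B and RAB5B.

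The early endosome and fast recycling group was detected whole, at 8 of 8 genes. RAB5C, a paralogue of RAB5A, had a mean of 8.88, and RAB22A, of the early and recycling endosome, had 8.78. RAB35, which returns cargo quickly to the plasma membrane, had 7.24, RAB21, of integrin endocytosis, 7.17, and RAB5B, the remaining RAB5 paralogue, 5.55. RAB31, of traffic between the trans-Golgi network and endosomes, and RAB4A, of fast recycling, were near the filter at 4.67 and 4.36. Among 6 genes of the recycling endosome and apical transport, 4 were detected. RAB14, which moves between the Golgi and endosomes, reached 9.44, RAB11A, of the recycling endosome, 7.51, RAB20, known from phagosomes, 6.49, and RAB11B, the close paralogue of RAB11A, 5.17. RAB15 and RAB17 stayed under 4.

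Late endosome, lysosome and autophagy genes were detected at 6 of 9. Beside RAB7A they were RAB9A, of return from late endosomes to the Golgi, with a mean of 8.49, RAB12, which directs recycling receptors to degradation, 7.50, RAB24, of autophagy, 7.45, RAB33B, a Golgi RAB that binds the autophagy factor ATG16L1, 5.73, and RAB9B 4.94. RAB7L1, RAB7B and RAB33A did not pass the filter. In the lysosome-related organelle group RAB27A, which docks melanosomes and secretory granules at the plasma membrane, had a mean of 7.22, and its group members RAB32 and RAB38, known from pigment cells, measured 2.88 and 2.39.

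ER and Golgi genes were detected at 8 of 12. After RAB1B came RAB2A, of traffic between Golgi and ER, with a mean of 9.59, and RAB18, of the ER and lipid droplets, with 9.48. RAB6A, of retrograde transport through the Golgi, had 7.48, RAB39B 7.01, RAB34, which has a part in forming cilia, 6.22, RAB43, of the Golgi, 5.57 and RAB19 3.98. RAB41, RAB30, RAB39A and RAB36 did not pass. Among 5 genes of regulated secretion, RAB10, of polarised exocytosis, had 9.27, RAB8A, of exocytosis and cilia, 7.92 and its paralogue RAB8B 6.67. RAB3B and RAB26, of regulated granule release, were the lowest of this group at 2.39 and 2.33. Of 6 genes of cilia and other roles, RAB23, which restrains Hedgehog signalling in the mouse, was detected at 4.13, and RAB40B, RAB28, RAB40C, RAB42 and RAB44 were not. RAB10L, given no role here, had 5.17.

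Proteins that act on RAB GTPases were detected at 7 of 8. RAB3IP, an exchange factor for RAB8, had the highest mean at 8.15. RAB11FIP1, RAB11FIP2 and RAB11FIP4, effectors that bind RAB11, had 7.92, 6.94 and 6.62, and RAB11FIP5 was under the filter at 2.55. RAB3GAP2 and RAB3GAP1, which form a complex that turns off RAB3 and turns on RAB18, had 7.32 and 5.34. RAB3IL1, an exchange factor for RAB3A, had 6.99.

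The genes varied unequally over the 8 arrays. The smallest ranges belonged to RAB1B at 0.34, RAB5A at 0.47, RAB35 at 0.48, RAB9B at 0.55 and RAB39B at 0.56. The largest belonged to RAB11FIP2 at 1.69, RAB33B at 1.51, RAB31 at 1.50, RAB3GAP1 at 1.36 and RAB11FIP4 at 1.35. For RAB11FIP2 the whole range lay between the replicates of DPF+, which measured 7.63 and 5.94, while DPF- measured 6.73 and 7.44, HG+ 7.11 and 6.85, and HG- 6.80 and 7.05. RAB31 likewise had its lowest and highest values in DPF+, 3.70 and 5.20, with the other arrays from 4.47 to 5.00. In both genes the replicates of 1 group lay further apart than any group means.

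Replicates of DPF+ differed by 0.5 or more in 23 of the 39 RAB genes, those of DPF- in 10, those of HG+ in 3 and those of HG- in 2. As shares these were 59.0%, 25.6%, 7.69% and 5.13%, beside the shares of all genes given above. Of the 23 genes, 10 were higher in DPF+ replicate 1 and 13 in replicate 2, with the largest differences in RAB11FIP2 (1.69 higher in replicate 1), RAB3IP (1.29 higher in replicate 1), RAB31 (1.50 lower), RAB19 (1.11 lower) and RAB4A (1.08 lower). In 21 of the 23 genes the replicates of DPF- differed in the opposite direction, 91.3%, and among all genes with such a difference in DPF+ the share was 81.7%. Replicate numbers carry no order, and the labels do not tie the numbers of one group to those of another. On DPF+ replicate 2 the median deviation of the RAB genes from their own means was -0.22, the lowest of the 8 arrays, where the median of all genes was 0.07. On the other arrays it lay between -0.11 and 0.08.

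**Figure D2:**
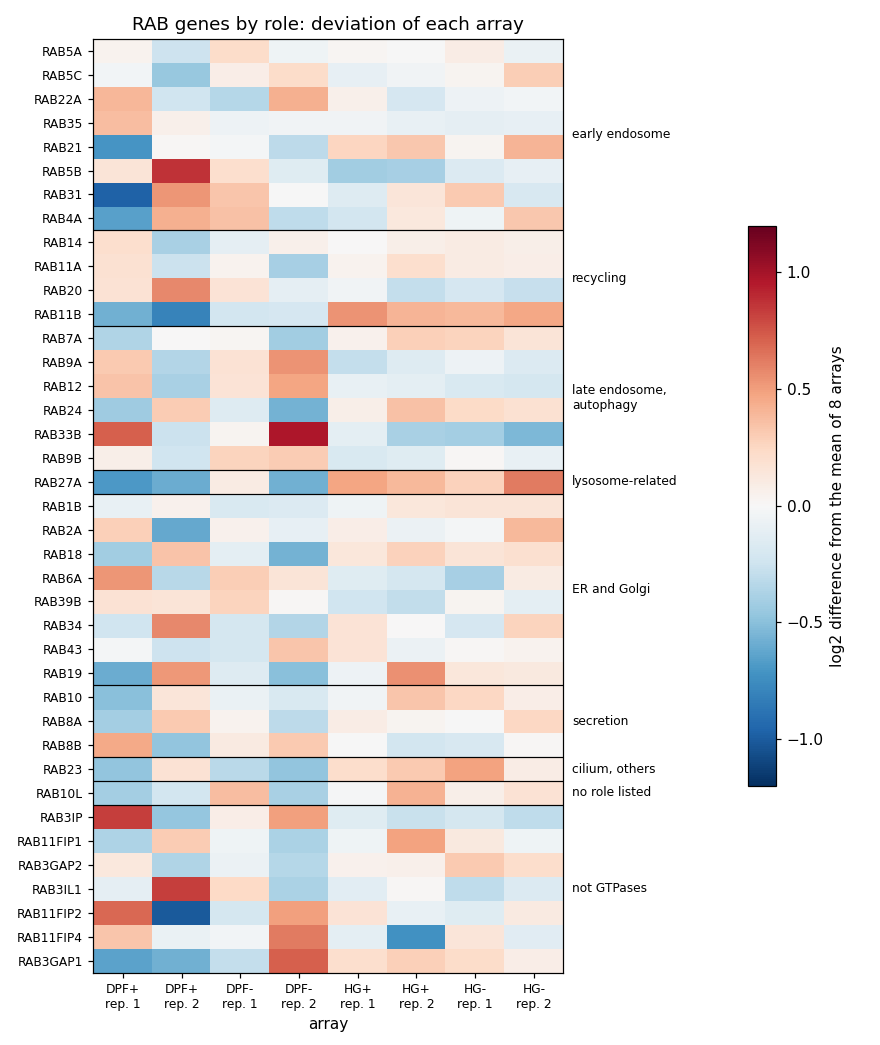
Deviation (log2) of each array from the gene's mean of 8 arrays for the 39 RAB genes, grouped by role, with 1 column per array. RAB11FIP2 ran from 5.94 to 7.63 within DPF+, RAB11FIP4 was low on HG+ replicate 2 at 5.89, and RAB11B was low in the DPF columns and high in the HG columns.

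The lines selected for different fertility were compared first, DPF+ against DPF-. RAB genes showed no difference that passed the test: limma called 0 of 39 at an adjusted p of 5%, beside 0.0% of all 7042 genes tested. At an unadjusted p of 0.05 there were 2, RAB3GAP1 and RAB11B, and 4.88% of all genes. These 2 fell to 0 with only the 4 DPF arrays fitted. The main fit shared the variance of each probe set over the 4 groups. Its SEs and p-values for the DPF lines thus also carried the narrower spread of the HG arrays. The median log2 difference was -0.11 for the RAB genes and 0.05 for all genes, with 17 RAB genes positive and 22 negative. The median size of the difference was 0.25 and that of all genes 0.19. The RAB count by the adjusted test was unchanged without DPF+ replicate 1, which left 1 array in DPF+. More RAB genes then reached an unadjusted p of 0.05, and more of all genes passed the adjusted test. The share of all genes at that unadjusted p is not given here, so the RAB count cannot be set beside it. The 3' to 5' measure was higher in DPF+ than in DPF- without overlap, and its part in these differences was not tested.

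RAB3GAP1, the catalytic subunit of the RAB3 GTPase-activating complex, measured 4.70 and 4.76 in DPF+, 5.05 and 6.06 in DPF-, 5.54 and 5.63 in HG+, and 5.56 and 5.42 in HG-. DPF+ lay below DPF- without overlap, but the DPF- replicates were 1.01 apart. The difference was -0.83 (SE 0.32, limma, unadjusted p of 0.033, adjusted p = 0.785), and it ran from -1.33 to -0.32 when single arrays were left out. RAB11B measured 4.59 and 4.37 in DPF+ and 4.95 and 4.97 in DPF-, again without overlap, a difference of -0.48 (SE 0.19, limma, unadjusted p of 0.039, adjusted p = 0.790). The RAB11A signal, 7.69 and 7.25 against 7.55 and 7.11, overlapped between these groups.

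RAB5 paralogues had different signs. RAB5C measured 8.84 and 8.42 in DPF+ and 8.96 and 9.10 in DPF-, lower in DPF+ without overlap, a difference of -0.40 (SE 0.21, limma adjusted p = 0.880) that ran from -0.61 to -0.19 with single arrays left out. RAB5B had the opposite sign, with 5.70 and 6.41 in DPF+ and 5.75 and 5.40 in DPF-, which overlapped, a difference of 0.48 (SE 0.27, limma adjusted p = 0.882). It rested on DPF+ replicate 2, and leaving out single arrays gave values from 0.13 to 0.84. RAB5A differed by -0.19 (SE 0.19), with overlap. RAB9B, the lower of the RAB9 pair, measured 5.01 and 4.70 against 5.21 and 5.25, without overlap, a difference of -0.38 (SE 0.20, limma adjusted p = 0.882) that ran from -0.53 to -0.22 with single arrays left out. The highest probe set of RAB9A gave the same estimate of -0.38 (SE 0.26), but its arrays overlapped. Its other tested probe set had the opposite sign, at 0.385 (SE 0.26), also with overlap.

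By role, the median difference was -0.31 over 6 late endosome and autophagy genes, -0.16 over 8 early endosome genes, 0.04 over 4 recycling genes, 0.09 over 8 ER and Golgi genes and -0.05 over 3 secretion genes. No gene of any role passed the test. Among the 10 genes with the highest means, RAB5C and RAB9A differed most, at -0.40 and -0.38 as given above. Smaller differences were those of RAB7A at 0.02 (SE 0.21), RAB1B at 0.16 (SE 0.16) and RAB14 at -0.07 (SE 0.22). RAB10 differed by -0.05 (SE 0.25), RAB22A by 0.04 (SE 0.31) and RAB2A by -0.15 (SE 0.30). RAB18 differed by 0.31 (SE 0.28), as its DPF+ arrays, 9.06 and 9.82, lay on both sides of DPF- at 9.36 and 8.91.

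**Figure D3:**
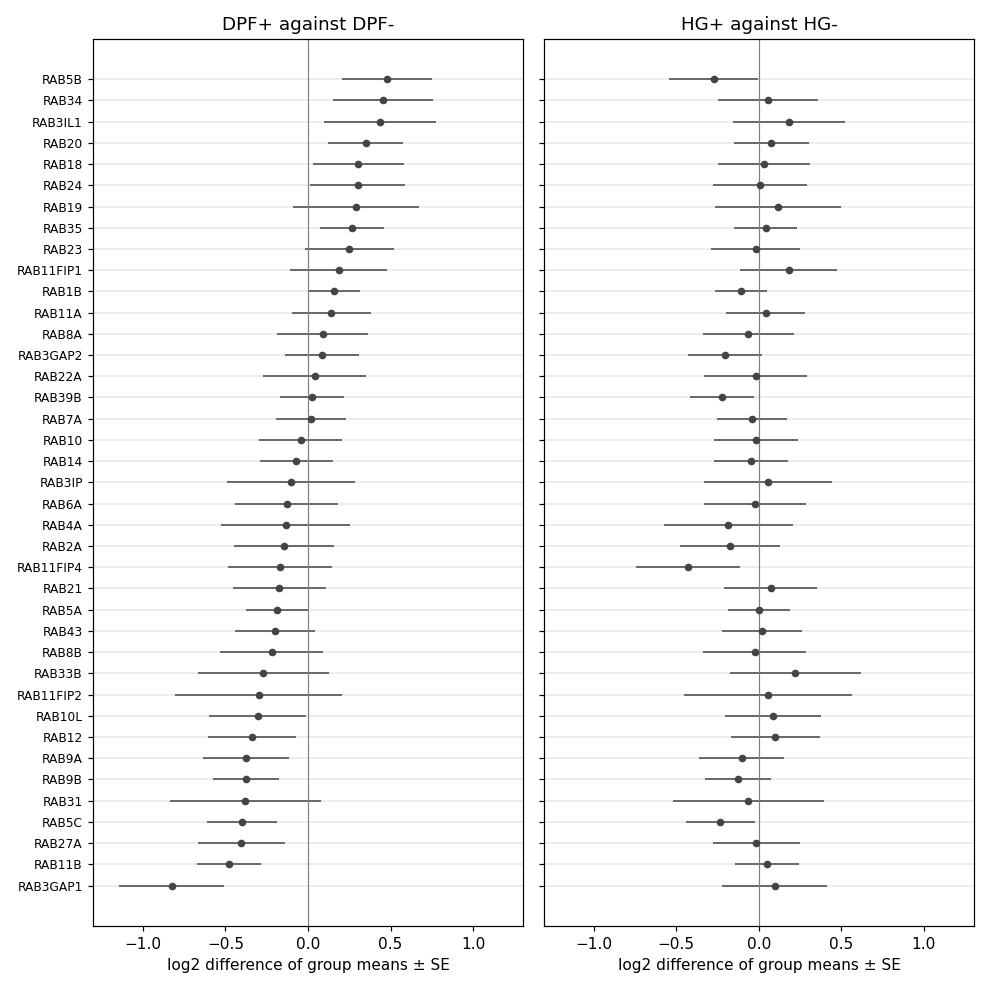
Log2 difference of group means with its SE for the 39 RAB genes, DPF+ against DPF- (left) and HG+ against HG- (right). On the left values ran from -0.83 for RAB3GAP1 to 0.48 for RAB5B, on the right from -0.43 for RAB11FIP4 to 0.22 for RAB33B.

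Inside the single line, HG+ against HG-, the RAB differences were small. The test called 0 of 39 RAB genes (limma, adjusted p), beside 0.0% of all genes, and 0 at an unadjusted p of 0.05, where all genes gave 0.284%. The fit shared the variance of each probe set over the 4 groups, so these p-values also carried the wider spread of the DPF arrays. With only the 4 HG arrays fitted both RAB counts were also 0. The median log2 difference of the RAB genes was -0.02 and that of all genes -0.01. The median size was 0.07 for the RAB genes and 0.09 for all genes, with 18 RAB genes positive and 20 negative. The 3' to 5' measure was slightly higher in HG+ than in HG- without overlap, and its part was not tested.

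The smallest p-values here belonged to 5 genes, each with a limma adjusted p of 1. RAB11FIP4, the RAB11 effector, measured 6.50 and 5.89 in HG+ and 6.77 and 6.48 in HG-, which overlapped, a difference of -0.43 (SE 0.32) that ran from -0.74 to -0.13 with single arrays left out. RAB39B measured 6.77 and 6.71 against 7.04 and 6.89, without overlap, a difference of -0.23 (SE 0.19). RAB5C measured 8.78 and 8.83 against 8.91 and 9.17, also without overlap, a difference of -0.24 (SE 0.21). RAB5B differed by -0.28 (SE 0.27) and RAB3GAP2 by -0.21 (SE 0.23), both lower in HG+ without overlap.

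In 3 of the 39 RAB genes the + and - arrays were apart on the same side in both sources, beside 221 of all 7042 genes (3.14%). The RAB share was the higher, but it rests on 3 genes and was not tested. RAB5C and RAB9B were lower in the + group of each source without overlap, RAB9B at 4.76 and 4.80 in HG+ against 4.96 and 4.85 in HG-. RAB35 was higher in the + group of each, at 7.61 and 7.30 against 7.18 and 7.20 in the DPF lines and at 7.20 and 7.15 against 7.13 and 7.14 in the HG hens. Its differences were 0.27 (SE 0.19) and 0.04 (SE 0.19), and none of these 3 genes passed the test in either comparison.

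The difference between the fertility comparisons was tested directly, as DPF+ minus DPF- less HG+ minus HG-. It called 0 of 39 RAB genes (limma, adjusted p) beside 0.0% of all genes, and 0 at an unadjusted p of 0.05 beside 2.31% of all genes. The latter RAB count was higher without DPF+ replicate 1, which left 1 array in DPF+, and the share of all genes there is not given. The median was 0.005 for the RAB genes and 0.06 for all genes. The smallest p-values were those of RAB3GAP1 at -0.92 (SE 0.45), RAB5B at 0.76 (SE 0.38), RAB11B at -0.53 (SE 0.27), RAB1B at 0.27 (SE 0.22) and RAB12 at -0.44 (SE 0.38), each with a limma adjusted p of 0.999. By the group means of their highest probe sets, RAB5B and RAB1B were higher in DPF+ than in DPF- and lower in HG+ than in HG-. The other tested probe set of RAB1B, with a mean of 10.27, did not show this. It gave -0.02 in the DPF lines, 0.015 in the HG hens and -0.035 for the difference between them. With single arrays left out RAB3GAP1 ran from -1.43 to -0.42, RAB5B from 0.40 to 1.11 and RAB12 from -0.81 to -0.08.

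The sources of the hens were compared last, the 4 DPF arrays against the 4 HG arrays. RAB11B, of the recycling endosome, and RAB27A, of granule docking, were lower in DPF, and no RAB gene was higher by the test on its highest probe set. These were 2 of 39 genes at a limma adjusted p of 5%, beside 8.34% of all genes. In direction, 2 were lower, beside 5.15% of all genes, and 0 were higher, beside 3.18%. The median log2 difference was -0.09 for the RAB genes and -0.06 for all genes, with 14 RAB genes positive and 25 negative, and the median size was 0.31 against 0.24. Without DPF+ replicate 1 the count was 5, beside 16.5% of all genes, and without any 1 of the HG arrays it was 0. Without DPF+ replicate 2 it was 15, beside 34.1% of all genes, with 9 lower (RAB7A, RAB10, RAB11B, RAB18, RAB19, RAB21, RAB23, RAB24 and RAB27A) and 6 higher (RAB3IP, RAB6A, RAB8B, RAB9A, RAB12 and RAB33B). Of these, RAB19 and RAB23 had DPF means under 4. The source of the hens and any batch of handling or hybridisation cannot be told apart here.

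RAB11B measured 4.59 and 4.37 in DPF+, 4.95 and 4.97 in DPF-, 5.71 and 5.58 in HG+, and 5.56 and 5.63 in HG-. Every DPF array lay below every HG array, at 4.72 ± 0.29 (SD, n = 4) against 5.62 ± 0.07 (SD, n = 4). The difference was -0.90 (SE 0.14, limma adjusted p = 0.00997), or 1.87-fold lower in DPF. Its paralogue RAB11A differed by -0.21 (SE 0.17, limma adjusted p = 0.448). Without any 1 of the HG arrays the RAB11B difference was -0.93 to -0.87, and the adjusted p rose to between 0.0528 and 0.0679.

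RAB27A measured 6.53 and 6.62 in DPF+, 7.32 and 6.64 in DPF-, 7.69 and 7.61 in HG+, and 7.49 and 7.84 in HG-. Again every DPF array lay below every HG array, although DPF- replicate 1 came within 0.17 of the lowest HG array. The means were 6.78 ± 0.36 (SD, n = 4) in DPF and 7.66 ± 0.15 (SD, n = 4) in HG, a difference of -0.88 (SE 0.19, limma adjusted p = 0.0259), or 1.84-fold lower in DPF. With the replicate number as a block its adjusted p was 0.0533, and without DPF- replicate 2 the difference was -0.71 with an adjusted p of 0.0737. Leaving out single HG arrays gave an adjusted p between 0.0750 and 0.123.

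By their highest probe sets, only RAB11B, RAB27A, RAB21 and RAB7A had all 4 DPF arrays below the 4 HG arrays. This pattern was found in 12.2% of all genes, read in the same way. Weaker tested probe sets of RAB1B, RAB2A, RAB14, RAB3GAP2 and RAB3IL1 also showed it. RAB21, of integrin endocytosis, measured 6.47 and 7.19 in DPF+, 7.15 and 6.86 in DPF-, 7.43 and 7.50 in HG+, and 7.21 and 7.58 in HG-, a difference of -0.51 (SE 0.20, limma adjusted p = 0.132). The other tested probe sets of RAB21 went the other way, at 0.205 and, for one with a mean of 3.97, at 0.24. RAB7A differed by -0.38 (SE 0.15, limma adjusted p = 0.139), and its other tested probe set gave -0.0475 with overlap. The reverse pattern, all DPF arrays above all HG arrays, was found in 0 RAB genes by their highest probe sets and in 8.51% of all genes.

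Towards higher values in DPF, RAB33B measured 6.45 and 5.47 in DPF+, 5.76 and 6.70 in DPF-, 5.61 and 5.34 in HG+, and 5.32 and 5.19 in HG-. A pair of high arrays, DPF+ replicate 1 and DPF- replicate 2, stood over the rest, and the difference was 0.73 (SE 0.28, limma adjusted p = 0.130). RAB5B measured 5.13 and 5.15 in HG+ and 5.38 and 5.45 in HG-, and the difference was 0.54 (SE 0.19, limma adjusted p = 0.107). RAB20 differed by 0.40 (SE 0.16, limma adjusted p = 0.142). In the other direction, RAB23 was lower in DPF, a difference of -0.55 (SE 0.19, limma adjusted p = 0.0989). It had means of 3.85 in DPF and 4.40 in HG, so its DPF level was not above the filter.

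By role, the median difference of DPF against HG was 0.25 over the late endosome and autophagy genes, -0.03 over the early endosome genes, -0.17 over the recycling genes, -0.15 over the ER and Golgi genes and -0.18 over the secretion genes. The late endosome group held both signs, as RAB33B, RAB9A (0.34), RAB12 (0.30) and RAB9B (0.20) were positive while RAB24 (-0.42) and RAB7A were negative. The 7 regulators and binding proteins had a median of -0.02, from -0.40 for RAB3GAP1 to 0.47 for RAB3IP, and none was called.

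**Figure D4:**
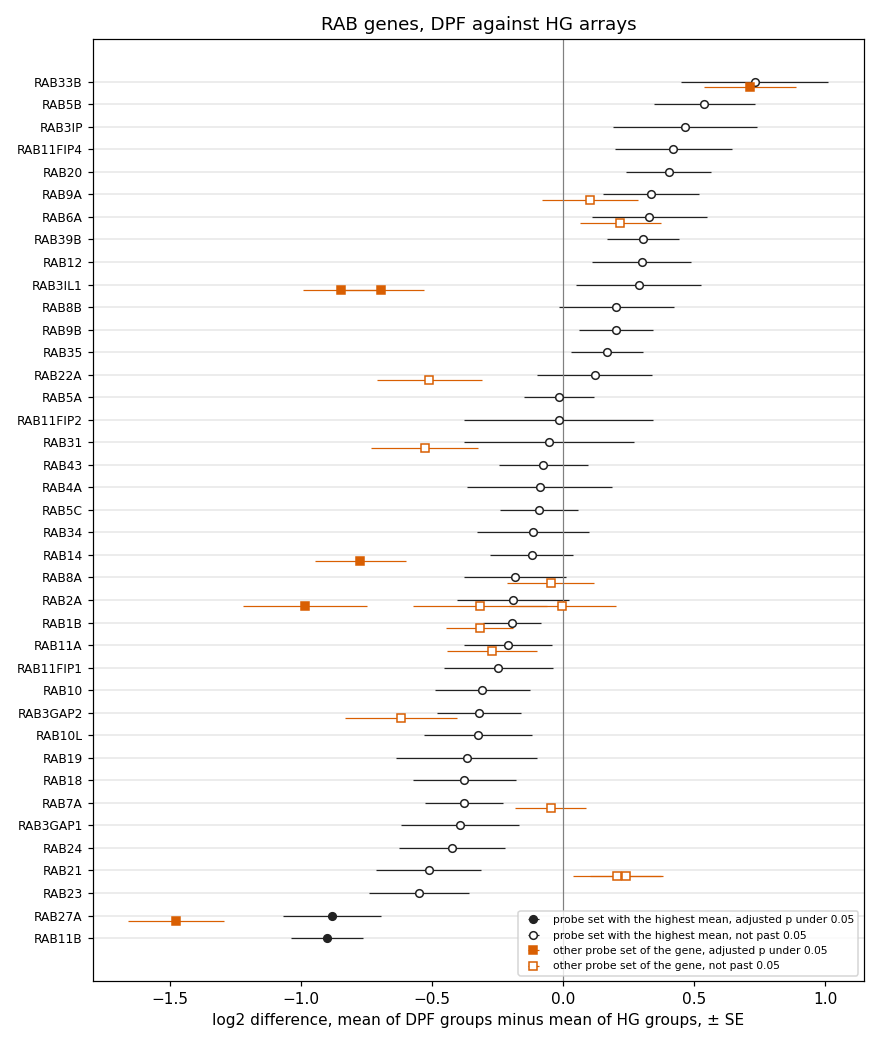
Log2 difference of the DPF groups from the HG groups with its SE, for the highest probe set of each of 39 RAB genes (circles) and for their other probe sets that passed the filter (squares), filled where the adjusted p was under 0.05. RAB11B at -0.90 and RAB27A at -0.88 were the filled circles, and 6 of 19 squares were filled.

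The result for a gene depended in part on which probe set read it. Of the 58 RAB probe sets that passed the filter, 8 were called between DPF and HG, beside 12.5% of all probe sets. Of 19 that were not the highest of their gene, 6 were called, beside 21.3% of all such probe sets, and 2 of the 6, both of RAB3IL1, were under 4 on every DPF array and passed the filter only through HG. Among 15 genes with several probe sets tested, 12 had the same sign in all of them and 3 had opposite signs (RAB21, RAB22A and RAB3IL1). Their differences were spread by a median of 0.33, and by 0.5 or more in 6 genes. Probe sets of a gene were read on the same arrays and are not replicates.

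The probe sets of RAB27A had the same direction. Its other probe set measured 3.72 and 4.25 in DPF+, 4.79 and 4.42 in DPF-, 5.91 and 5.61 in HG+, and 5.74 and 5.82 in HG-, without overlap between DPF and HG. Its difference was -1.48 (limma adjusted p = 0.00582). RAB33B also had like values, 0.73 and 0.71, of which the second passed the test (limma adjusted p = 0.0391). This second probe set measured 5.66 to 6.24 in DPF and 5.12 to 5.35 in HG, higher in DPF without overlap.

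RAB14 and RAB2A differed by probe set. The highest probe set of RAB14 gave -0.12, while another, at 6.77 and 6.21 in DPF+, 6.63 and 6.86 in DPF-, 7.40 and 7.22 in HG+, and 7.35 and 7.59 in HG-, gave -0.77 (limma adjusted p = 0.0304). RAB2A had 4 probe sets, with differences from -0.99 (limma adjusted p = 0.0358) to -0.0025, and -0.19 for the highest. The called one measured 8.17 and 7.17 in DPF+, 8.05 and 8.16 in DPF-, 8.94 and 8.68 in HG+, and 8.71 and 9.16 in HG-. For RAB3IL1 the highest probe set gave 0.29. The weaker ones measured 3.33 to 3.84 in DPF and 4.07 to 4.49 in HG, and 3.05 to 3.12 in DPF and 3.70 to 4.08 in HG, so the opposite sign of this gene rests on values under the filter in DPF. RAB11B had only 1 probe set, with DPF values from 4.37 to 4.97, so its result could not be set beside another.

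**Figure D5:**
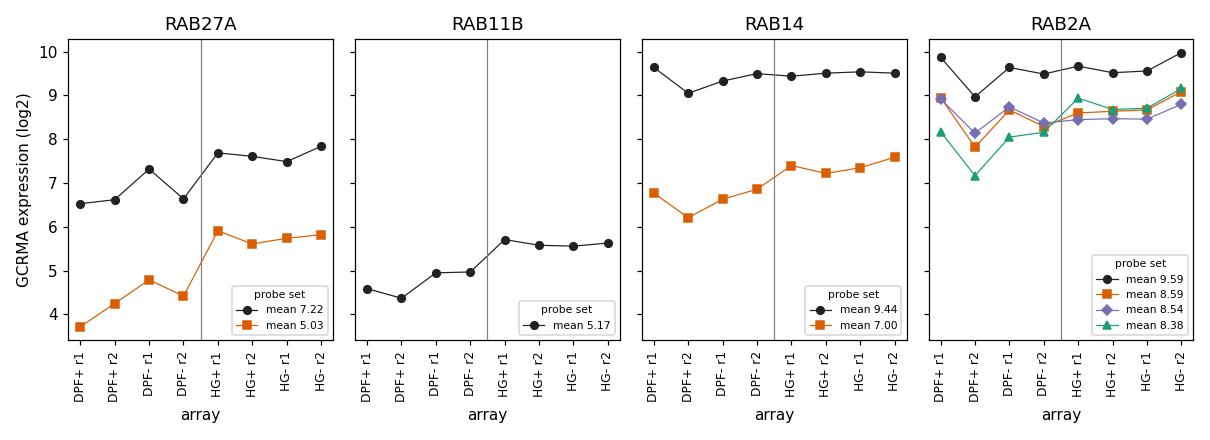
GCRMA expression (log2) on each of the 8 arrays for every tested probe set of RAB27A, RAB11B, RAB14 and RAB2A, with a vertical line between the DPF and HG arrays and 1 line per probe set. Both RAB27A probe sets lay lower in DPF. RAB14 and RAB2A each had 1 probe set with every HG array above every DPF array. The other probe set of RAB14 and the others of RAB2A overlapped between DPF and HG.

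Other measures moved with the sources of the hens. The 3' to 5' measure of the control transcripts was 1.64 ± 0.25 (SD, n = 4) in DPF and 1.12 ± 0.06 (SD, n = 4) in HG on the log2 scale. COL1A2, a collagen of theca and stroma, ran from 4.08 to 5.97 in DPF and from 8.01 to 8.93 in HG, a difference of -3.77 that was the lowest of all genes. It was the only 1 of 7 theca and stroma markers detected, with CYP17A1, CYP19A1, COL1A1, COL3A1, DCN and ACTA2 under 4 on the log2 scale. CDH5, the only 1 of 4 endothelial markers detected, had means of 2.62 in DPF and 4.03 in HG, and passed the filter only through HG. CD74, the only 1 of 5 leukocyte markers detected, differed by -0.76, with overlap (limma adjusted p = 0.110). Of the 11 granulosa markers 8 were lower and 3 higher in DPF, from -1.23 for INHBA to 0.43 for INHA, and 1 passed the test (GATA4, -0.64, limma adjusted p = 0.0425). Of 5 red cell markers only 2 were found on the array, HBA1 and HBAD, and both were under 4. The part of these differences in the RAB11B and RAB27A results was not tested.

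The machinery that regulates and reads RAB proteins was described from a list of 156 genes, of which 131 were on the array under a known name and 96 passed the filter. In the fertility comparisons limma called 0 of 96 in DPF+ against DPF-, 0 in HG+ against HG- and 0 for the difference between them, and at an unadjusted p of 0.05 these counts were 3, 0 and 2, beside 4.88%, 0.284% and 2.31% of all genes. The largest value was that of TRAPPC10, a subunit of the TRAPP complex that activates Golgi RAB proteins. It measured 9.61 and 9.04 in DPF+, 8.02 and 7.80 in DPF-, 8.84 and 8.99 in HG+, and 9.11 and 8.80 in HG-. Both DPF- arrays lay below all others, and DPF+ against DPF- differed by 1.42 (SE 0.24, limma, unadjusted p of 0.000457, adjusted p = 0.245). EXOC6B, of the exocyst tether, differed by 0.59 (SE 0.21, limma adjusted p = 0.714), and RBSN, an effector of RAB5 and RAB4, by -0.51 (SE 0.19, limma adjusted p = 0.764). In HG+ against HG- the smallest p-values were those of MYO5A, SYTL2 and RABEPK, each with a limma adjusted p of 1. SYTL2, an effector of RAB27A, differed by -0.55 (SE 0.24) and RABEPK, an effector of RAB9, by -0.43 (SE 0.27). MYO5A, a myosin that RAB27A and RAB11 recruit, measured 3.81 and 3.96 in HG+ and 4.21 and 4.46 in HG-, and reached the filter of 4 only in HG-.

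Between DPF and HG, 8 of the 96 regulators and effectors passed the test, 8.33% of the list beside the share of all genes given above, and their median log2 difference was -0.11. RBSN was lower in DPF, at 5.00 ± 0.30 (SD, n = 4) against 5.74 ± 0.09 (SD, n = 4) in HG, a difference of -0.73 (limma adjusted p = 0.0167). RIN2, an exchange factor for RAB5, differed by -0.96 and GOLGA5, a Golgi protein, by -0.53. SGSM3, a GTPase-activating protein, had means of 3.99 in DPF and 5.48 in HG. ANKFY1, an effector of RAB5, and DENND3, the exchange factor of RAB12, were under 4 on every DPF array, with HG means of 4.26 and 3.98, and passed the filter only through HG. EXOC6B (0.78) and VPS8 (0.53), a subunit of an endosomal tether, were higher in DPF. These calls depended on single arrays, and leaving out an array left 1 in its group. They were lost without any 1 of the HG arrays and without DPF- replicate 2. More were called without DPF+ replicate 2, where more of all genes were called too.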

How the data were processed

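Total RNA of 8 hen samples was amplified, biotin-labelled and hybridised to Affymetrix chicken arrays, per the labels. The authors deposited log2 values for each probe set, produced by GCRMA per the submitters' processing notes. The sources used here do not say whether the 8 arrays were normalised together. From the table of 38535 probe sets, 96 control probe sets and 8 with a blank value were left out. The 12725 probe sets that reached 4 (log2) on at least 2 of the 8 arrays were tested. Gene names came from the array annotation, where 27178 probe sets had 1 gene, 177 several and 11180 none, and 56 of the 58 RAB genes were found in the chicken reference table by identifier (RAB39A and RAB44 were not).

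The 4 group means were fitted together with limma 3.58.1 in R 4.3.3 (lmFit, eBayes with an intensity trend, two-sided), with 4 residual and 3.68 prior degrees of freedom. The Benjamini-Hochberg adjustment ran over those 12725 probe sets with a threshold of 5%, and the script was tested on simulated data. Differences are between group means on the log2 scale, first group minus second. The genes named with full statistics were the 10 with the highest means, every RAB gene past 5% in a comparison or else the 5 with the smallest p, and the 5 with the largest and the 5 with the smallest range. From the list of regulators and effectors they were those past 5% or else the 3 with the smallest p. The remaining genes were described by role with their values. The members, roles and lists were chosen with earlier results of these data known. Alternatives were no filter, a filter at 6, median centring, quantile normalisation, no intensity trend, only the arrays of the contrast, the replicate number as a block, RNA amount as a covariate, array weights, the mean of a gene's probe sets, and each array left out in turn.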

Additional observations from a re-analysis of the deposited data

Results flagged for a closer look

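In 3 of the 78 sets of 4 arrays examined (39 RAB genes in DPF and in HG), 1 array lay far from the other 3 by Dixon's criterion for 4 values. That is 3.85% of the sets, and chance alone flags about 1 in 20. RAB27A measured 7.32 on DPF- replicate 1, high beside the other DPF arrays at 6.53 to 6.64. RAB34 measured 6.79 on DPF+ replicate 2, high beside 5.86, 5.98 and 6. RAB1B measured 10.57 on HG+ replicate 1, low beside 10.75 to 10.77.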

How the results depend on the processing

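Of the counts and medians recomputed under each alternative, 186 stayed near their value (counts within 1.5 times, medians within 0.0858, the SD between replicates) and 24 moved. Of the values of single named genes, 279 kept their direction and side of the threshold, 11 kept their direction but lost the call, and 0 changed direction. In many of these the direction could not change. Leaving out an array of the other source does not alter a fertility difference, and another filter or trend leaves the estimates as they were. The 2 RAB genes called between DPF and HG became 1 without a filter, 1 with a filter at 6 and 1 with the replicate block, and 0 to 15 with single arrays left out. There were 5 without DPF+ replicate 1 (16.5% of all genes) and 15 without DPF+ replicate 2 (34.1% of all genes), and none without any 1 of the 4 HG arrays. An array left alone in its group was assumed to vary like the other groups. The 8 regulators and effectors became 1 with a filter at 6, 3 with the replicate block, 5 with array weights and 0 to 30 with single arrays left out. Over all genes the share called between DPF and HG moved too, from 8.34% to 5.54% with that filter, 4.32% with the block and 6.56% with the weights. The count of regulators and effectors was highest without DPF+ replicate 2, where the share of all genes was the 34.1% given above. These counts thus moved with those of all genes. In DPF+ against DPF- the regulator and effector count of 0 rose without DPF+ replicate 1, where the share of all genes called rose too. The median RAB difference in DPF+ against DPF- was -0.01 without a filter, beside -0.11. The median of the difference between the fertility comparisons ran from -0.09 to 0.05 with single arrays left out, the lowest without HG+ replicate 1 (-0.085). Over all settings RAB11B in DPF against HG ran from -0.96 to -0.78 and RAB27A from -1.18 to -0.71. The calls were lost for RAB11B without each HG array, and for RAB27A without a filter (adjusted p = 0.0806), with the replicate block, without DPF- replicate 2 and without each HG array; the cause was not tested. Paired replicate numbers were checked by the correlation of deviations, r = -0.52 for DPF+ with DPF-, -0.19 for HG+ with HG-, 0.51 for DPF+ with HG+, 0.12 for DPF- with HG-, -0.26 for DPF+ with HG- and -0.43 for DPF- with HG+, and the labels only number the samples. The replicate block changed no call in the fertility comparisons, at 0 RAB genes in each. The number of arrays and signals under 4 limit what could be seen.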
